A study of Homo sapiens with 9 samples.

Results

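A group of genes of branched-chain and aromatic amino acid breakdown was followed through Gln deprivation in HepG2, a human hepatocellular carcinoma cell line. The 9 genes, of 22587 in the expression table, were chosen by name as the steps that open these pathways and those that carry tyrosine to its end products: BCAT1, BCAT2, BCKDHA, BCKDHB, BCKDK, TAT, HPD, HGD and FAH. Earlier results of these data were known when they were chosen. RNA-seq was run on 9 libraries in 3 groups of 3. Cells with Gln added were compared with cells kept without Gln for 12 h or for 24 h, and no group carried a genetic change. The sample titles give no culture time for the cells with Gln added, so neither time has a control known to match it in culture time. The labels list the Gln substitute GlutaMAX as the treatment of the control group, whereas the description of the deprivation medium also names it, so which medium held it is not settled by the labels. Levels are given as FPKM, fragments scaled to transcript length and library size, so a comparison between genes rests on the lengths behind the table. The labels do not say that the replicates were separate cultures, so the p-values measure the spread between these libraries, which may be technical.

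The branched-chain amino acids leucine, isoleucine and valine are first transaminated, by cytosolic BCAT1 or mitochondrial BCAT2, in a reversible reaction that pairs with glutamate and 2-oxoglutarate. The resulting keto acids are then committed to oxidation by the branched-chain keto acid dehydrogenase, whose decarboxylating component is built from BCKDHA and BCKDHB and is switched off by the kinase BCKDK. Liver is known for little branched-chain transaminase and for much of the aromatic pathway. There TAT transaminates tyrosine, and HPD, HGD and FAH carry the ring through homogentisate to fumarate and acetoacetate.

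Recovered fragments on genes ran from 29618604 to 36258158 per library. Replicate 1 at 24 h and replicate 3 at 12 h stood somewhat apart from their groups. The chi-square per degree of freedom between replicates was taken over genes above a minimum number of fragments, 13626 to 14010 per pair. It was 14.4 and 9.62 for the pairs with replicate 1 at 24 h, beside 5.17 for the other pair. For the pairs with replicate 3 at 12 h it was 7.84 and 8.34, beside 3.38. Without the latter, 6, 7 and 3 of the tested members passed at 12 h, at 24 h and between the times, and without the former 7, 7 and 4 did, beside 6, 7 and 3 with all libraries. All 7 HepG2 markers looked at were present in each library, with ALB at 3230 to 3908 FPKM and HNF4A at 51.6 to 62.6 FPKM, and their sum came to 7302 to 7401 FPKM in the controls, 6410 to 6478 FPKM after 12 h and 6201 to 6522 FPKM after 24 h. Of 8 markers of other cell types, 6 were in the table. PTPRC and CD3E, listed with LYZ as blood markers, were not in it. LYZ reached 524 to 785 FPKM, and the other 5 stayed at or below 0.343 FPKM, with COL1A1, COL3A1 and DCN at 0 in some libraries. The 6 summed to 731 to 752 FPKM in the controls, 524 to 564 FPKM after 12 h and 737 to 785 FPKM after 24 h. Nearly all of that sum was LYZ, with means of 742, 539 and 767 FPKM in these groups. The part of these shifts in the results was not tested. In a bulk library, fewer cells of one kind and less RNA per cell cannot be told apart.

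Without Gln, the branched-chain transaminases moved in opposite directions, TAT rose, and most of the other genes fell. The limma fit on log2(FPKM + 0.1) tested the 8 members whose mean reached 0.5 FPKM, and BCAT1, with a mean of 0.231 FPKM, was tested in a fit without that filter. At 12 h, 6 of the 8 passed at an adjusted p under 0.05, with TAT higher and BCAT2, BCKDHB, BCKDK, HPD and FAH lower. The background for that count is high, since 60.2% of the 11880 genes tested passed in that comparison, 29.1% as higher and 31.0% as lower. At 24 h, 7 of the 8 passed, beside 64.7% of all genes tested, 33.0% as higher and 31.7% as lower. TAT and BCKDHA were then higher, the same 5 genes were lower, and HGD did not pass. The 3 libraries of each group lay wholly apart for all 8 at 12 h and for 7 of the 8 at 24 h, beside 67.2% and 69.9% of all genes tested, and BCAT1 lay apart at both times. The median log2 fold change of the 8 was -0.28 after 12 h and -0.36 after 24 h, beside medians of -0.02 and 0.01 over all genes tested. Both comparisons share the Gln-added libraries, so they are not independent of each other.

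**Figure D1:**
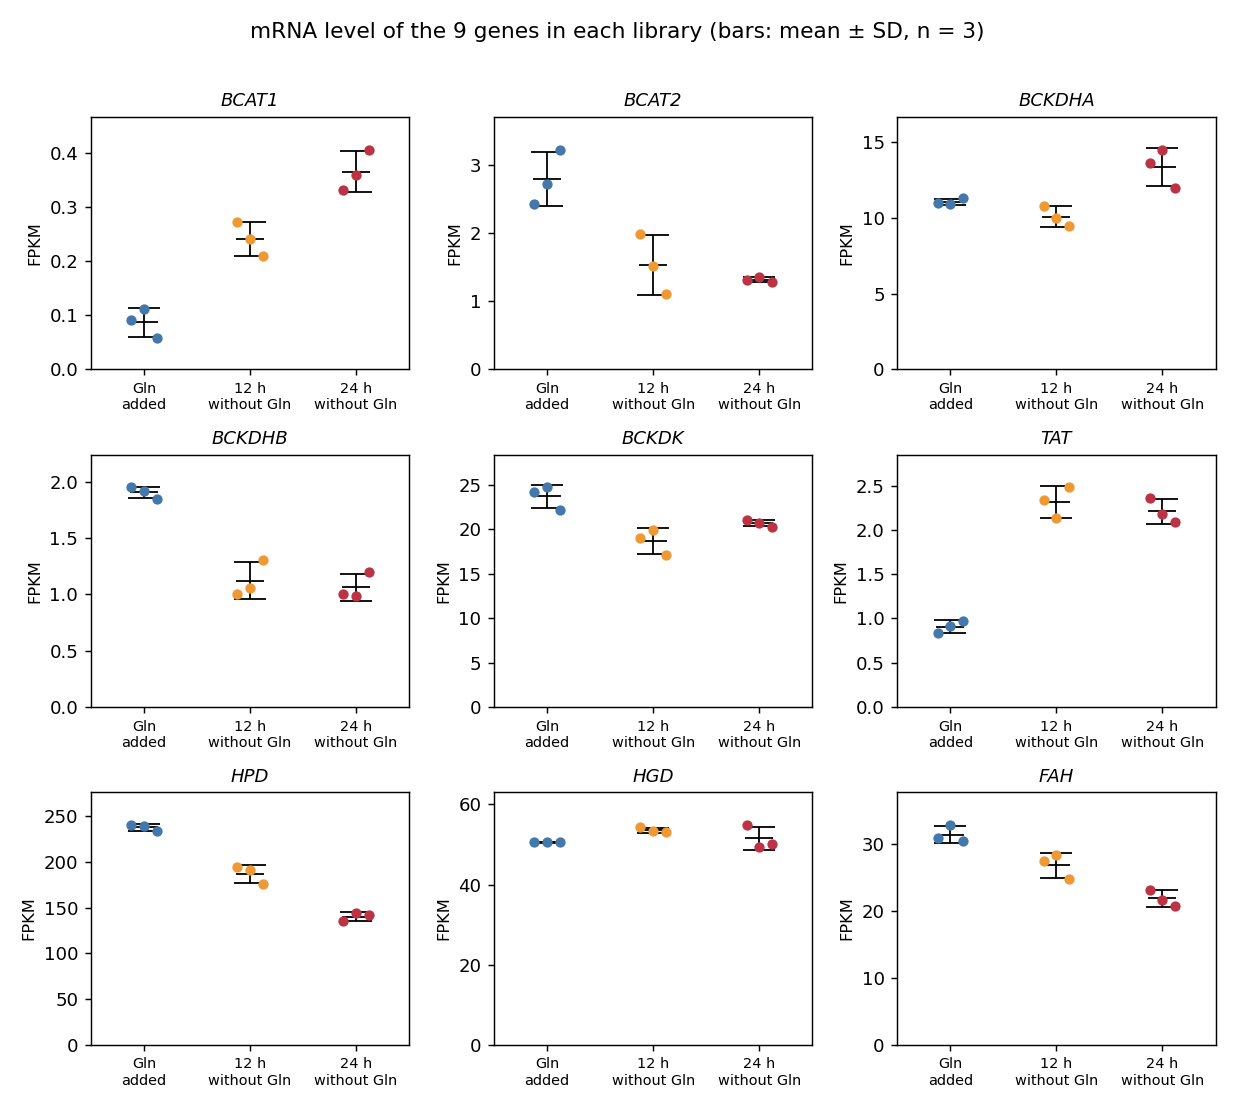
Level of each of the 9 genes in each library, in FPKM, with points for libraries and a bar for the mean and SD of each group of 3. BCAT1 and TAT sit higher in both deprived groups than with Gln added, BCAT2, BCKDHB, BCKDK, HPD and FAH sit lower, and HGD stays near 50 FPKM.

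With Gln added the levels spanned more than 3 orders of magnitude, and the order from high to low was HPD, HGD, FAH, BCKDK, BCKDHA, BCAT2, BCKDHB, TAT and BCAT1, with no overlap between the libraries of neighbours. At 12 h, TAT stood above BCAT2 and BCKDHB, whose libraries overlapped. At 24 h, TAT kept that place, BCAT2 stood above BCKDHB, and the libraries of FAH and BCKDK overlapped. This order holds for the lengths the table implies, which differ from the exonic bases annotated in GENCODE, at 8574 against 4071 for BCKDHB, 1742 against 2251 for BCKDHA and 2173 against 10161 for FAH. Per annotated length, an alternative added after seeing the data, FAH stood below BCKDK and BCKDHA in each group. BCKDHB then stood above BCAT2 and TAT in each group, so the place of TAT above BCKDHB without Gln rests on the lengths. Ratios of FPKM of 1 gene between groups do not depend on its length. Log2 fold changes of low genes do depend on it somewhat, through the pseudocount.

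BCAT1, at chr12:24810024-24949101 on the minus strand of GRCh38, was the least abundant of the 9. With Gln added it measured 0.0909, 0.111 and 0.0578 FPKM in replicates 1, 2 and 3, which rested on 26 to 49 fragments per library. At 12 h it measured 0.272, 0.240 and 0.209 FPKM, and at 24 h 0.332, 0.359 and 0.406 FPKM, on 95 to 110 and 150 to 179 fragments. The 3 groups did not overlap, and each deprived library lay above each Gln-added one. The mean went from 0.0866 ± 0.0268 FPKM (SD, n = 3) to 2.78 times that level at 12 h and 4.22 times at 24 h. On the log2 scale BCAT1 rose by 0.87 after 12 h (SE 0.156, adjusted p = 0.0026) and by 1.33 after 24 h (adjusted p = 0.000185) in limma without the filter. The further 0.45 from 12 h to 24 h did not pass (adjusted p = 0.13). At such low levels the size on the log2 scale follows the pseudocount. It was 0.19 at 12 h and 0.33 at 24 h with a pseudocount of 1, 1.41 and 2.00 with 0.01, and 1.51 and 2.08 when the recovered fragments were fitted with voom, and BCAT1 passed in each. The difference between the times passed with a pseudocount of 1, at 0.14 (limma adjusted p = 0.0255).

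The letters around 1 BCAT1 start site are shown because BCAT1 had the largest relative rise and was the only member whose promoter held TGATGNAA, the core of the C/EBP-ATF composite element that ATF4 binds. Both strands were searched, over 250 bases before to 50 after each start in RefSeq on GRCh38.p14, where 6 of the 9 members had 12 promoters in all. BCAT2, TAT and HGD had none there. The 30 bases read along the gene's minus strand at chr12:24949131-24949160, with the match in capitals.
BCAT1 upstream: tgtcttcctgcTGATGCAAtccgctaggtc
The match begins 48 bases before the start at position 24949101, which is also the gene's 5′ end in the annotation, and 1 of the 5 BCAT1 starts has it. TGATGNAA occurs in 3.62% of 35116 promoters and in a promoter of 4.46% of 27305 genes. The AP-1 letters TGANTCA, also searched on both strands, occurred among the members only in a promoter of HPD, 42 bases after its start, and in 7.71% of all promoters and a promoter of 9.37% of genes. That RefSeq start, at position 121888611, lies outside the span of HPD in GENCODE given below. These matches are descriptions of letters, and FPKM per gene does not separate the BCAT1 starts.

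BCAT2, at chr19:48795062-48811029 on the minus strand, is the mitochondrial transaminase. It measured 2.43, 2.72 and 3.22 FPKM with Gln added, 1.98, 1.52 and 1.10 at 12 h, and 1.31, 1.35 and 1.28 after 24 h, on 81 to 234 fragments. All deprived libraries lay below all Gln-added ones, with the widest spread at 12 h. The mean of 2.79 ± 0.401 FPKM (SD, n = 3) fell to 0.551 times that level at 12 h and 0.471 times at 24 h (log2 fold change -0.85, SE 0.174, adjusted p = 0.00166, and -1.02, adjusted p = 0.000405, limma). Between 12 h and 24 h the difference of -0.17 had a 95% interval from -0.56 to 0.21, and its sign changed, to 0.02, without replicate 1 at 12 h. An annotated lncRNA on the opposite strand covers 5.25% of the exonic bases of BCAT2.

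Read as a ratio within each library, BCAT1 was 0.0321 ± 0.0123 of BCAT2 (SD, n = 3) in the controls, 0.162 ± 0.0263 after 12 h and 0.279 ± 0.0347 after 24 h. BCAT2 was the more abundant transaminase transcript in all 9 libraries, and with annotated lengths the ratio reached at most 0.785. The log2 ratio was 1.72 higher after 12 h and 2.35 higher after 24 h than with Gln, and 0.63 higher from 12 h to 24 h. None of the 3 groups overlapped, and each two-sided exact permutation p was 0.1, the smallest that 3 libraries against 3 can give. With a pseudocount of 1 the differences from Gln added were 0.78 and 1.04, and with 0.01 they were 2.29 and 3.07. The difference between the times was 0.26 and 0.77 with these pseudocounts.

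**Figure D2:**
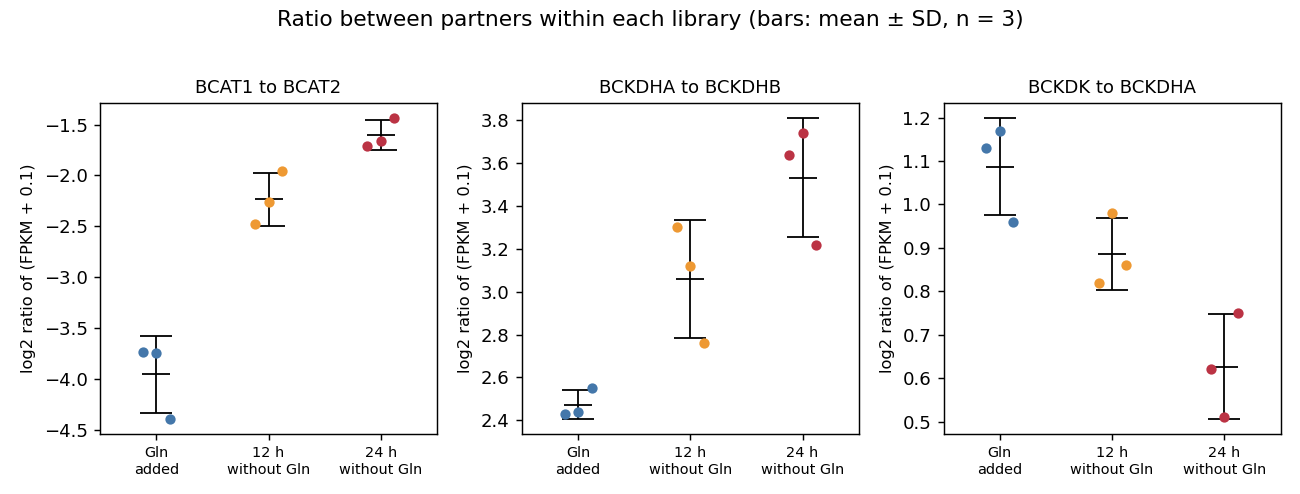
Log2 ratio of FPKM + 0.1 of BCAT1 to BCAT2, BCKDHA to BCKDHB and BCKDK to BCKDHA in each library, with points for libraries and a bar for the mean and SD of each group of 3. The BCAT1 to BCAT2 ratio averages -3.95 in the controls, -2.23 after 12 h and -1.61 after 24 h, with no overlap.

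The subunits of the dehydrogenase did not move together. BCKDHB, the beta subunit, at chr6:80106647-80346270 on the plus strand, measured 1.95, 1.92 and 1.85 FPKM with Gln added, 1.00, 1.06 and 1.31 at 12 h, and 1.00, 0.989 and 1.20 at 24 h. Both deprived groups lay wholly below the controls and overlapped each other. The mean fell to 0.589 times the Gln-added level at 12 h (log2 fold change -0.72, SE 0.118, adjusted p = 0.000363, limma) and to 0.558 times at 24 h (-0.79, adjusted p = 0.000155). The 24 h to 12 h difference was -0.07, with a 95% interval from -0.33 to 0.19. With a pseudocount of 1 the falls from Gln added were -0.46 and -0.50, and both passed.

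BCKDHA, the alpha subunit, at chr19:41397808-41425002 on the plus strand, measured 11.0, 10.9 and 11.3 FPKM with Gln added, 10.8, 10.0 and 9.43 at 12 h, and 13.6, 14.5 and 12.0 at 24 h. The 12 h libraries lay just below the controls and the 24 h libraries above both groups. The 12 h difference of -0.13 did not pass (limma adjusted p = 0.118, 95% interval -0.29 to 0.02). At 24 h BCKDHA rose to 1.21 times the Gln-added mean (0.27, adjusted p = 0.00585), and it was 0.40 higher at 24 h than at 12 h (adjusted p = 0.00271). Another annotated protein-coding gene on the same strand shares 73.7% of the exonic bases of BCKDHA and is not a row of the table under its identifier, so how reads were divided is uncertain.

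BCKDHA was 5.80 ± 0.287 times BCKDHB per length of the table (SD, n = 3) in the controls, 9.13 ± 1.79 after 12 h and 12.7 ± 2.42 after 24 h. With annotated lengths these were 2.13 ± 0.106, 3.35 ± 0.657 and 4.68 ± 0.890. This ratio was chosen after its values were seen. On the log2 scale it was 0.59 higher at 12 h and 1.06 higher at 24 h than with Gln added, without overlap (two-sided exact permutation p = 0.1 for each), and the 12 h and 24 h libraries overlapped.

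BCKDK, the kinase that inactivates the complex, at chr16:31106107-31112791 on the plus strand, measured 24.2, 24.7 and 22.2 FPKM with Gln added, 19.0, 19.9 and 17.1 at 12 h, and 21.0, 20.7 and 20.3 at 24 h. Each deprived library was below each control, and the 24 h libraries were above those at 12 h. The fall was to 0.789 times the Gln-added mean at 12 h (log2 fold change -0.34, SE 0.0588, adjusted p = 0.000523, limma) and to 0.872 times at 24 h (-0.19, adjusted p = 0.0134). Without Gln-added replicate 2 the 24 h value was -0.16 and no longer passed (adjusted p = 0.0554). The 24 h to 12 h difference of 0.15 did not pass (adjusted p = 0.108).

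Set against its substrate, BCKDK was 2.14 ± 0.164 times BCKDHA (SD, n = 3) in the controls, 1.86 ± 0.115 after 12 h and 1.55 ± 0.129 after 24 h. The log2 ratio at 12 h was 0.88, beside 1.09 with Gln added, and the libraries overlapped (two-sided exact permutation p = 0.2). At 24 h it was 0.63 and lay below both other groups, with a difference of -0.46 from Gln added and of -0.26 from 12 h (exact permutation p = 0.1 for each). BCKDHA's shared exons bear on this ratio too.

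TAT, at chr16:71565660-71577092 on the minus strand, transaminates tyrosine and is the entry to its breakdown. It measured 0.831, 0.914 and 0.976 FPKM with Gln added, 2.34, 2.13 and 2.48 at 12 h, and 2.36, 2.18 and 2.09 after 24 h, on 117 to 353 fragments. Every deprived library was above every control, and the deprived groups overlapped each other. TAT rose to 2.55 times the Gln-added mean at 12 h and 2.43 times at 24 h (log2 fold change 1.26, SE 0.0949, adjusted p = 1.25e-06, and 1.20, adjusted p = 1.28e-06, limma). With a pseudocount of 1 these were 0.80 and 0.75, and both passed. From 12 h to 24 h the difference was -0.07, with a 95% interval from -0.28 to 0.14. The antisense transcript TAT-AS1 covers 8.01% of the exonic bases of TAT and averaged 0.442 FPKM in the controls, 0.800 FPKM after 12 h and 0.763 FPKM after 24 h. The sources do not settle whether counting used strand, so reads of the pair may not be separated.

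HPD, the dioxygenase that makes homogentisate, at chr12:121839527-121863596 on the minus strand, was the most abundant of the 9. It measured 240.3, 239.7 and 234 FPKM with Gln added, 195, 191 and 176 at 12 h, and 135, 144 and 142 at 24 h, from at least 9311 fragments in each library. The 3 groups were apart and descending. The mean of 238 ± 3.60 FPKM (SD, n = 3) fell to 0.786 times that level at 12 h (log2 fold change -0.35, SE 0.0433, adjusted p = 5.19e-05, limma) and to 0.591 times at 24 h (-0.76, adjusted p = 1.02e-07). The drop from 12 h to 24 h, -0.41, passed as well (adjusted p = 0.000125). An annotated lncRNA on the opposite strand covers 5.04% of the exonic bases of HPD.

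HGD, which opens the ring of homogentisate, at chr3:120628172-120682269 on the minus strand, measured 50.5, 50.5 and 50.7 FPKM with Gln added, 54.3, 53.3 and 53.2 at 12 h, and 54.8, 49.5 and 50.2 at 24 h. The 12 h libraries were all slightly above the controls, and the 24 h libraries spanned them because replicate 1 was high. Neither difference passed in limma (0.08, adjusted p = 0.0982, and 0.02, adjusted p = 0.626), and the 95% intervals, as folds, were 0.996 to 1.13 at 12 h and 0.955 to 1.08 at 24 h. The 12 h difference did pass in 4 alternative fits, at 0.08 to 0.12 on the log2 scale (adjusted p = 0.0242 to 0.0397). Without replicate 1 at 24 h, the difference of HGD between the times was -0.11 and passed (limma adjusted p = 0.0447).

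FAH, fumarylacetoacetase, the closing step of tyrosine breakdown, at chr15:80152490-80186946 on the plus strand, measured 30.9, 32.8 and 30.4 FPKM with Gln added, 27.5, 28.3 and 24.7 at 12 h, and 23.2, 21.7 and 20.7 at 24 h. Like HPD, its 3 groups were apart and descending. It fell to 0.856 times the Gln-added mean at 12 h (log2 fold change -0.23, SE 0.0598, adjusted p = 0.00753, limma) and to 0.698 times at 24 h (-0.52, adjusted p = 2.28e-05), with -0.29 between the times (adjusted p = 0.00661).

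**Figure D3:**
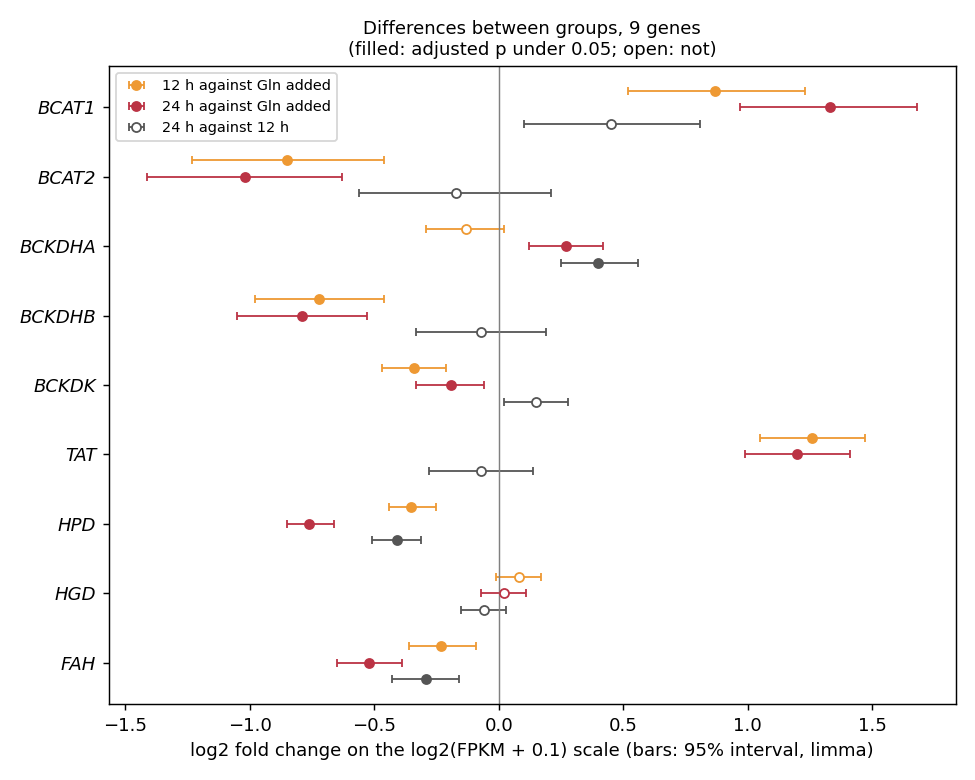
Log2 fold change of each of the 9 genes at 12 h and at 24 h against Gln added and at 24 h against 12 h, from limma on log2(FPKM + 0.1), with bars for 95% intervals and filled points for adjusted p under 0.05. Against Gln added, TAT (1.26 and 1.20) and BCAT1 (0.87 and 1.33, fit without the filter) lie above 0, BCAT2 is lowest (-0.85 and -1.02), and the intervals of HGD span 0.

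Compared directly, 24 h against 12 h, 3 of the 8 tested members passed, with BCKDHA higher and HPD and FAH lower, beside 20.1% of all genes tested, 9.57% as higher and 10.5% as lower. Libraries lay wholly apart for BCAT1, BCKDHA, BCKDK, HPD and FAH, beside 34.4% of all genes tested. The members' median was -0.07, and that of all genes tested was 0.02. The scaling mattered more here than against Gln added, since 47.7% of all calls were higher as deposited, 33.4% after median-ratio scaling and 54.3% after rescaling to the same total.

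By pattern over the 9 libraries, the genes most like TAT were GSPT1, NSUN6 and CDV3, with Pearson r of 0.997, 0.997 and 0.995, and those most like BCAT2 were BLOC1S1, RTF1 and GDPD3, with r of 0.978, 0.976 and 0.971. These values describe libraries that fall into 3 treatment groups. Such likeness was common, as 1794 of 11879 genes exceeded 0.9 with TAT and 471 with BCAT2.

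Beyond the opening steps, most of the branched-chain pathway also fell. Of 23 further genes, from the remaining subunits of the dehydrogenase to the propionate branch, 22 were tested and MMAA was below the filter. After 12 h 16 fell and 1 rose, with a median log2 fold change of -0.24, and after 24 h again 16 fell and 1 rose, with a median of -0.40. These are 77.3% of the genes tested in the list, beside the 60.2% and 64.7% of all genes given above. The list was chosen with earlier results of these data known. The gene called higher at each time was AUH, a hydratase of leucine breakdown, at 0.24 (limma adjusted p = 0.0208) and 0.40 (adjusted p = 0.000991). Its 12 h call was lost without Gln-added replicate 1 or 2 and without replicate 3 at 12 h (limma adjusted p up to 0.0809). From 12 h to 24 h, 8 genes were called, 7 of them lower, which is 36.4% of those tested, beside 20.1% of all genes called and 10.5% called lower. Without replicate 3 at 24 h, 5 were called in place of 8.

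ALDH6A1, the methylmalonate semialdehyde dehydrogenase of valine breakdown, had the largest fall of these at 24 h. It measured 7.49, 7.12 and 7.35 FPKM with Gln added, 3.47, 3.47 and 3.83 at 12 h, and 2.57, 2.82 and 2.82 at 24 h. The 3 groups were apart, with log2 fold changes of -1.01 at 12 h (limma adjusted p = 3.00e-07) and -1.39 at 24 h (adjusted p = 1.89e-08), and -0.38 between the times (adjusted p = 0.00226). BBOF1 on the opposite strand overlaps 10.0% of the exonic bases of ALDH6A1 and averaged 1.02 FPKM in the controls, 0.558 FPKM after 12 h and 0.541 FPKM after 24 h.

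MMAB, which makes the adenosylcobalamin cofactor of methylmalonyl-CoA mutase, measured 9.62, 8.36 and 9.15 FPKM with Gln added, 4.25, 3.89 and 3.72 at 12 h, and 3.66, 3.60 and 3.62 at 24 h. Its log2 fold changes were -1.17 and -1.29 (limma adjusted p = 1.65e-07 and 4.96e-08). MVK, mevalonate kinase of cholesterol synthesis, lies on the opposite strand and overlaps 3.74% of the exonic bases of MMAB, and it averaged 13.6 FPKM in the controls, 4.04 FPKM after 12 h and 4.27 FPKM after 24 h. MMUT, the mutase itself, fell from a mean of 14.3 FPKM to 9.55 at 12 h and 9.46 at 24 h (-0.58 and -0.59, limma adjusted p = 4.27e-06 and 2.53e-06).

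The aromatic list held 20 further genes of aromatic amino acid and tetrahydrobiopterin metabolism, of which 15 were tested. TDO2, IDO1, IDO2, KMO and ACMSD were below the filter, with group means of at most 0.0683 FPKM, and the first 3 of these are the enzymes that open tryptophan breakdown. At 12 h, 12 fell and 1 rose (median -0.35), and at 24 h 13 fell and none rose (median -0.38), in each case 86.7% of those tested. Of all genes tested 60.2% were called at 12 h and 64.7% at 24 h, 31.0% and 31.7% as lower, and their medians were -0.02 and 0.01. This list too was chosen with earlier results of these data known. The rise at 12 h was that of KYNU, kynureninase, at 0.35 (limma adjusted p = 0.00193), and it was 0.06 at 24 h (adjusted p = 0.503). Between the times 5 fell and KYAT3, a kynurenine aminotransferase, rose by 0.22 (limma adjusted p = 0.032), together 40.0% of those tested, beside 20.1% of all genes. The total was 3 without replicate 2 at 12 h or without replicate 3 at 24 h. The call of KYAT3 was lost with replicate 1 or 2 at 12 h or any library at 24 h left out (limma adjusted p up to 0.109), and also without the filter, with voom and with only the 2 groups compared.

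GCDH, glutaryl-CoA dehydrogenase of lysine and tryptophan breakdown, went from a mean of 13.0 FPKM to 7.04 and 6.09 (-0.88 and -1.08, limma adjusted p = 3.56e-06 and 4.95e-07). SYCE2 on the opposite strand overlaps 8.80% of the exonic bases of GCDH, with group means of at most 0.115 FPKM. HAAO, a dioxygenase on the way from kynurenine to NAD, went from 4.17 FPKM to 2.63 and 2.19 (-0.65 and -0.90, limma adjusted p = 3.59e-05 and 2.08e-06).

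**Figure D4:**
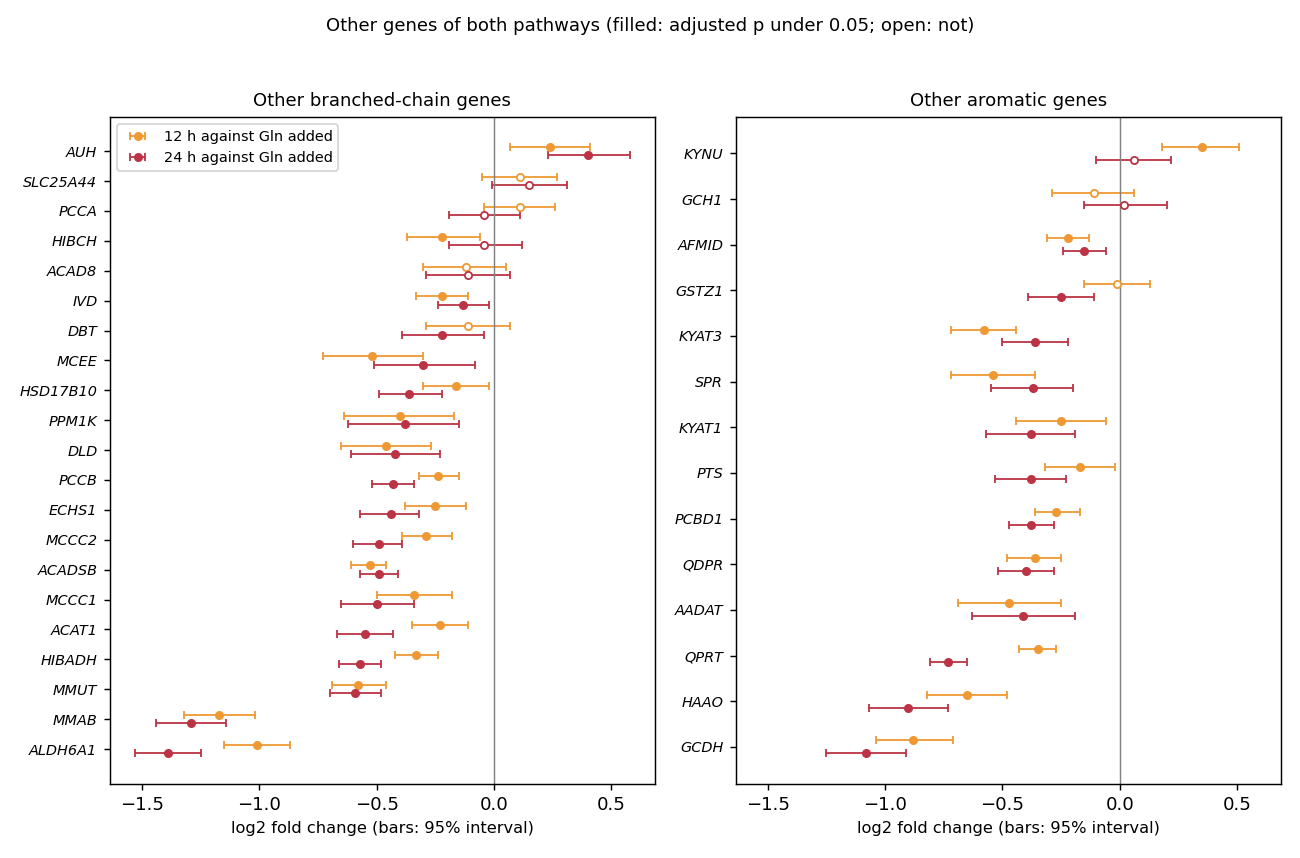
Log2 fold change at 12 h and at 24 h against Gln added of tested genes of the further branched-chain list (left) and aromatic list (right), from limma, with bars for 95% intervals and filled points for adjusted p under 0.05. At 24 h the branched-chain genes run from -1.39 (ALDH6A1) to 0.40 (AUH) and the aromatic genes from -1.08 (GCDH) to 0.06 (KYNU).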

How the data were processed

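Gene expression was measured by RNA-seq in 9 HepG2 libraries. Reads were aligned to GRCh38 with STAR, the submitters' processing notes also name HTSeq and R 3.2.0, and the authors deposited 1 table of FPKM values for 22587 genes; the gene annotation is not given in the sources used here. The labels name a VAHTS kit and the methods a strand-specific NEBNext kit, so whether counting used strand is open. The authors tested differences with DESeq2, which needs read counts, and the deposited values are FPKM. Here the main fit was limma on the FPKM, and voom on whole fragments recovered from them was an alternative. Libraries were grouped by their labels, and no value column was left out.

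Values were taken as log2(FPKM + 0.1), the 11880 genes averaging 0.5 FPKM or more were kept, and 1 limma fit (version 3.58.1, R 4.3.3) with a mean-variance trend covered the 3 groups. P-values were adjusted by the Benjamini-Hochberg method over all genes tested and called under 0.05. Fold changes on this scale understate those of low genes. Ratios between genes were tested by two-sided exact permutation. Low FPKM values gave whole fragments in 100% of genes, within a tolerance of 0.02, which gave the depths. The fits were tested on simulated data in which far fewer genes changed than were called here, and only at 24 h. That test does not cover changes as broad as these. Positions and overlaps are from GENCODE on GRCh38.

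The members and lists were chosen with earlier results of these data known. Genes named were the 9 members, the 3 with the largest log2 fold change at 24 h in each further list among those called without overlap, and the 3 most correlated with the member that rose and the one that fell most in that fit, plus AUH, KYNU and KYAT3, which moved against their lists and were chosen after their values were seen. Some genes counted in the lists are not reported here by name. Alternatives changed the pseudocount, filter, scaling, samples, trend, replicate block and test.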

Additional observations from a re-analysis of the deposited data

Results flagged for a closer look

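Results were singled out where the direct limma comparison of 24 h with 12 h passed on the log2 scale. Time without Gln and time in culture cannot be told apart in this comparison, as the Gln-added group has no stated culture time. Among the members these were BCKDHA, 0.40 higher at 24 h, HPD, at -0.41, and FAH, at -0.29. Among the further genes named by rule those reported here were ALDH6A1, at -0.38, and HAAO, at -0.26. Against Gln added BCKDHA stood at -0.13 at 12 h, which did not pass, and at 0.27 at 24 h, which did, and the other 4 were further below the controls at 24 h. The call for HAAO was lost in 10 alternatives. Groups of 3 were not tested for outlying values of single genes.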

How the results depend on the processing

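All values compared here come from 12 h, 24 h and Gln-added groups of 3 libraries. Over the counts of calls and the ratios between genes, 290 of the alternative values kept their direction and side of the threshold or, for counts, stayed within 1.5 times, and 4 did not. These were counts for 24 h against 12 h. For the ratios only the direction could change, since their exact permutation p cannot fall below 0.1. The further branched-chain genes called ranged from 5 to 8 with 1 library left out, beside 8, with 5 when replicate 3 at 24 h was left out. The further aromatic genes called ranged from 3 to 6 in the same way, beside 6, with 3 without replicate 2 at 12 h, 3 without replicate 3 at 24 h, and 3 with only the 2 groups compared. With median-ratio scaling this count was 9, with 8 lower, which lies at the limit of 1.5 times. The cause was not tested.

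Signs turned for near-zero differences. Leaving out 1 library gave ranges of -0.38 to 0.02 for BCAT2, -0.15 to 0.04 for BCKDHB and -0.03 to 0.02 for MMUT at 24 h against 12 h, and of -0.02 to 0.05 for HGD at 24 h against Gln added. MMUT was 0.00 after rescaling to the same total, and HGD was -0.00 with voom without the filter. HAAO at 24 h against 12 h lost its call in 10 alternatives (limma adjusted p = 0.0551 to 0.124).

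Replicate numbers are shared across groups. Libraries of different groups were correlated after each gene's group mean was subtracted on the log2 scale. Same-numbered libraries then correlated at -0.14 to 0.28, beside -0.47 to 0.30 for differently numbered ones. Of 9 libraries, 3 correlated best with their own number, so the numbers were not taken as pairs. With the replicate as a block, 7341, 7802 and 2586 genes were called at 12 h, at 24 h and between the times, beside 7147, 7686 and 2386 without it, and the members called were 6, 7 and 4. The added call was BCKDK between the times, 0.15 (limma adjusted p = 0.0391). With voom on the recovered fragments, 7320, 7894 and 2618 genes were called. Depth limits BCAT1 most, with 26 fragments in its lowest library. The voom fit without the filter and the other fits of BCAT1 without it were chosen after seeing the data.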
